A study of Homo sapiens with 9 samples.

Results

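The genes described here encode the aminoacyl-tRNA synthetases, the enzymes that attach each amino acid to its transfer RNA, with the scaffold proteins that hold several of them together. They were chosen by name, with no measured value in the rule, and 39 genes were sought in the gene lists of MDA-MB-231 cells. Of the 39, 20 encode cytosolic enzymes or their subunits, 16 encode mitochondrial enzymes and 3 encode scaffold proteins. All 39 were found, 18 of them under a symbol since replaced (AARS is now AARS1), and 37 could be tested among 9369 genes in all. PARS2 was listed for 7 libraries and SARS2 for 6, so both are given by their levels only.

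MDA-MB-231 is an established triple-negative breast cancer cell line. Its cells were treated with DMSO as vehicle, with rimonabant (SR), an antagonist of the cannabinoid receptor CB1, or with TXX-1-10, a compound derived from rimonabant. Each treatment had 3 RNA-seq libraries, made from polyadenylated RNA. The dose and the duration for the sequenced cells are not given in the sources used here, and the labels do not say that libraries came from separate cultures, so p-values measure only the spread between these libraries.

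A synthetase recognises its amino acid and the transfer RNAs that carry it, joins them at the cost of ATP, and so sets which amino acid each codon receives. Cytosolic and mitochondrial protein synthesis mostly use separate enzymes, all encoded in the nucleus, and in the cytosol part of the enzymes sit in the multisynthetase complex. When charged transfer RNA runs short, the kinase GCN2 (gene EIF2AK4) senses the uncharged molecules and translation of the transcription factor ATF4 rises, and cytosolic synthetase genes are among the known targets of ATF4.

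Levels are given as FPKM, the reads on a gene scaled to its length and to the depth of the library. Library depth, as the FPKM values imply it, ran from 17078370 to 17245379 reads in the vehicle libraries, 17477838 to 18813662 in the rimonabant libraries and 18394759 to 19277808 in the TXX-1-10 libraries. The list of rimonabant replicate 1 holds 4237 genes, so the tests used the other 8 libraries. Of the 39 genes, 23 were listed for all 9 libraries (the 20 cytosolic genes, CARS2, IARS2 and AIMP1), and a fit of 9 libraries was run beside the first. Rimonabant replicate 1 and TXX-1-10 replicate 3 stood apart from their replicates. Counts in both fell with gene length relative to the mean of the other replicates of the group (Spearman rho across genes -0.69 in each, a description over 4236 genes). Measured in the same way, the other rimonabant and TXX-1-10 libraries had rho from 0.48 to 0.67. The mean they are set against includes rimonabant replicate 1 or TXX-1-10 replicate 3, so these values are not separate evidence of a length trend. The line markers VIM (224 to 329 FPKM) and AXL (124 to 221 FPKM) were high in every library, and among luminal breast genes ESR1 and PGR stood at 0.0459 FPKM or lower and FOXA1 and GATA3 at 1.45 FPKM or lower where they were listed, while ERBB2 was listed in every library at 7 to 9.52 FPKM. Mitochondrially encoded genes took 6.26% to 6.52% of the library total under vehicle, 6.06% to 6.86% under rimonabant and 3.06% to 3.51% under TXX-1-10. Their part in the results was tested only by taking these counts out of the library total. A difference below is a log2 fold change with its SE (standard error) from edgeR's quasi-likelihood test with Benjamini-Hochberg adjustment over all 9369 genes. A gene passed when its adjusted p was under 0.05, and it is called changed when the log2 fold change was also at least 1 in size.

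In vehicle-treated cells the synthetase genes covered a wide range of levels. FARSA, the catalytic subunit of the phenylalanine enzyme, was highest at 65.5 ± 1.68 FPKM (SD, n = 3), followed by KARS for lysine at 59.2 ± 1.12 and AARS for alanine at 57.6 ± 1.23. IARS2, the isoleucine enzyme of mitochondria, was the highest mitochondrial gene at 53.6 ± 1.61 FPKM and lay above all but 3 cytosolic genes. FARS2, the phenylalanine enzyme of mitochondria, was lowest of the tested genes at 3.21 ± 0.255 FPKM, and among cytosolic genes CARS for cysteine was lowest at 7.23 ± 0.201. In this order 19 of the 36 pairs of neighbours overlapped between libraries, so many neighbours in it do not differ beyond their spread. Under TXX-1-10 the highest levels belonged to GARS (126 ± 6.56 FPKM), SARS (98.5 ± 5.32 FPKM) and AARS (97.5 ± 3.19 FPKM).

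Under TXX-1-10 most cytosolic genes rose and most mitochondrial genes fell. Of the 37 tested genes, 15 rose and 17 fell, and 5 did not pass. Of all 9369 genes, 34.7% rose and 40.6% fell by the same test, so a call as such sets these genes little apart from the background. In 32 of the 37 genes the FPKM of TXX-1-10 and vehicle did not overlap, as in 76.4% of all genes. Changed by at least the fold threshold were 4 genes, all higher, where 5.28% of all genes were changed and higher and 7.39% were changed and lower. Among the 20 cytosolic genes 12 rose and 7 fell, with a median log2 fold change of 0.28. Among the 14 tested mitochondrial genes 3 rose and 9 fell, with a median of -0.36, and the median over all genes was -0.04. FPKM summed over the 20 cytosolic genes was 740, 735 and 730 in the vehicle libraries, 789, 753 and 757 in the rimonabant libraries, and 964, 957 and 1.01e+03 in the TXX-1-10 libraries. Summed over the 14 mitochondrial genes it was 168, 167 and 167 under vehicle, 158 and 154 in rimonabant replicates 2 and 3, and 138, 138 and 144 with TXX-1-10. A large part of the mitochondrial sum came from IARS2 alone, with a mean of 53.6 FPKM under vehicle and 39.7 with TXX-1-10. The cytosolic sum was highest and the mitochondrial sum lowest in the 3 TXX-1-10 libraries, with no overlap with the other treatments. In the cytosolic sum the widest gains in mean FPKM from vehicle to TXX-1-10 were in GARS (45.8 to 126), SARS (38.1 to 98.5), AARS (57.6 to 97.5) and WARS (18.4 to 51.5), while 7 of the 20 genes fell. GARS and KARS also give mitochondrial forms, so this sum is not of cytosolic enzymes alone. In a bulk sample, a change in the share of cells and a change in RNA per cell cannot be told apart.

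**Figure D1:**
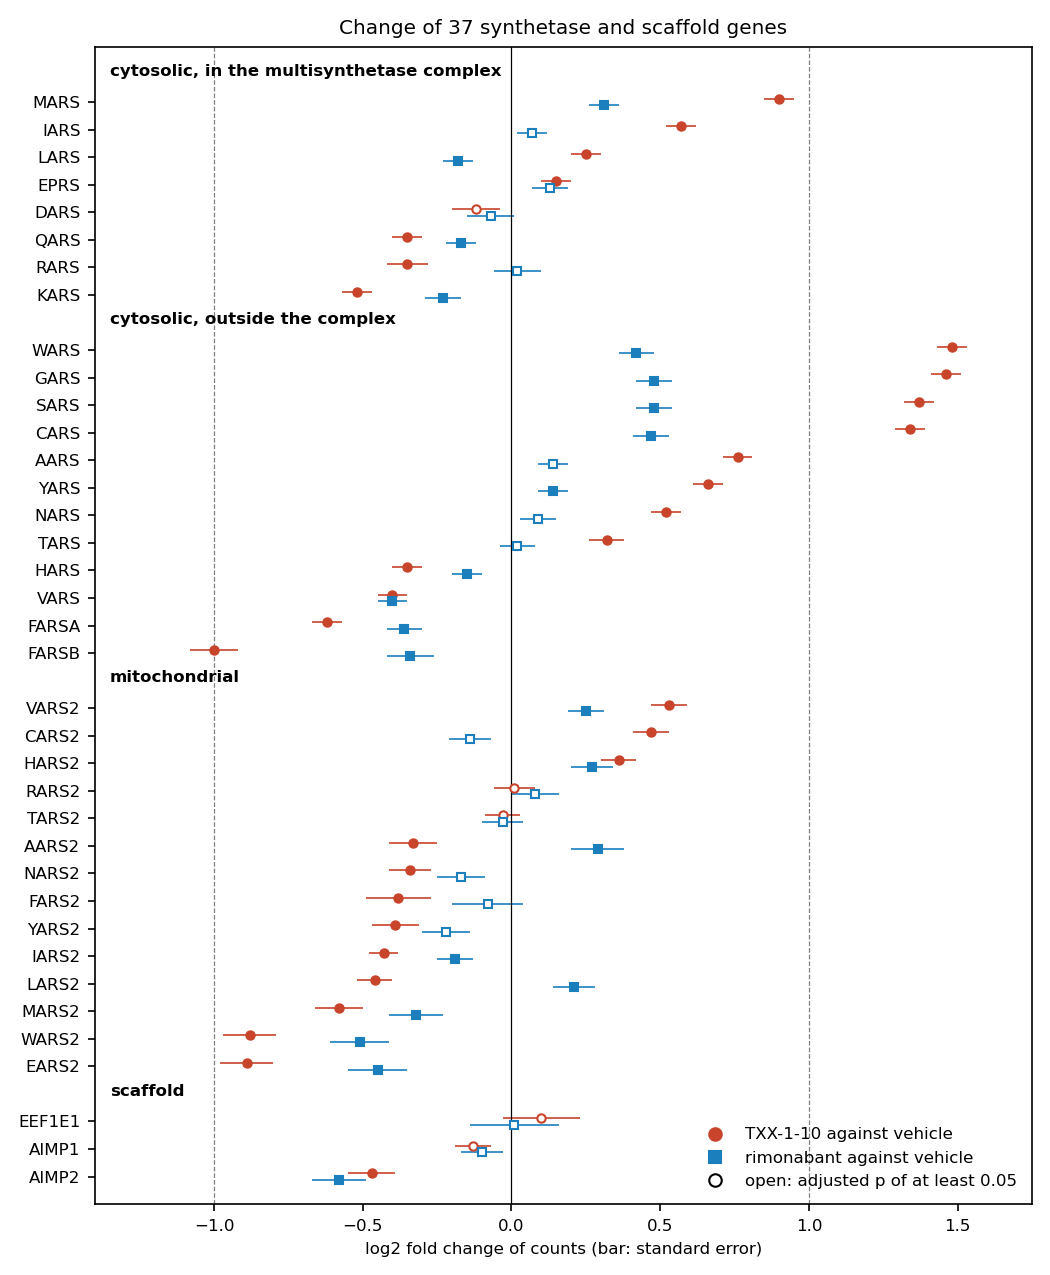
Log2 fold change against vehicle (x axis) of each tested synthetase and scaffold gene (y axis, by group), with points for TXX-1-10 and for rimonabant, bars of 1 standard error, and open points where the adjusted p was 0.05 or more. The highest points are WARS, GARS, SARS and CARS under TXX-1-10 (1.34 to 1.48), and most mitochondrial genes lie below 0.

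The 4 changed genes were cytosolic enzymes that do not belong to the multisynthetase complex. WARS, the tryptophan enzyme, which is also known as an interferon-induced gene (chromosome 14, 100333788 to 100376805, minus strand), had 19.4, 18.5 and 17.5 FPKM in the vehicle libraries, 26.3, 24.4 and 24.9 in the rimonabant libraries and 50.8, 50.9 and 52.7 in the TXX-1-10 libraries. The 3 treatments did not overlap, with vehicle lowest and TXX-1-10 highest. Its log2 fold change under TXX-1-10 was 1.48 (SE 0.05, edgeR adjusted p = 1.48e-10), a 2.79-fold rise, and 98.1% of the tested genes had a lower value.

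GARS, the glycine enzyme, whose gene gives both the cytosolic and the mitochondrial form (chromosome 7, 30594681 to 30634033, plus strand), had 46.7, 46 and 44.7 FPKM with vehicle, 69.1, 62.6 and 65.2 with rimonabant and 123, 122 and 134 with TXX-1-10. Again the treatments formed 3 separate steps. The log2 fold change under TXX-1-10 was 1.46 (SE 0.05, edgeR adjusted p = 2.22e-10). SARS, the serine enzyme, which also charges the transfer RNA that later receives selenocysteine (chromosome 1, 109213918 to 109238169, plus strand), had 37.9, 38 and 38.4 FPKM with vehicle, 57.9, 52.2 and 54.2 with rimonabant and 98, 93.5 and 104 with TXX-1-10. Its levels made the same 3 steps, and it rose by 1.37 on the log2 scale under TXX-1-10 (SE 0.05, edgeR adjusted p = 3.13e-10). CARS, the cysteine enzyme (chromosome 11, 3000922 to 3057613, minus strand), had 7.31, 7 and 7.37 FPKM with vehicle, 10.9, 9.83 and 10.2 with rimonabant and 17.5, 18.3 and 19.2 with TXX-1-10. It was the lowest cytosolic gene under vehicle and rose by 1.34 on the log2 scale (SE 0.05, edgeR adjusted p = 3.87e-10).

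**Figure D2:**
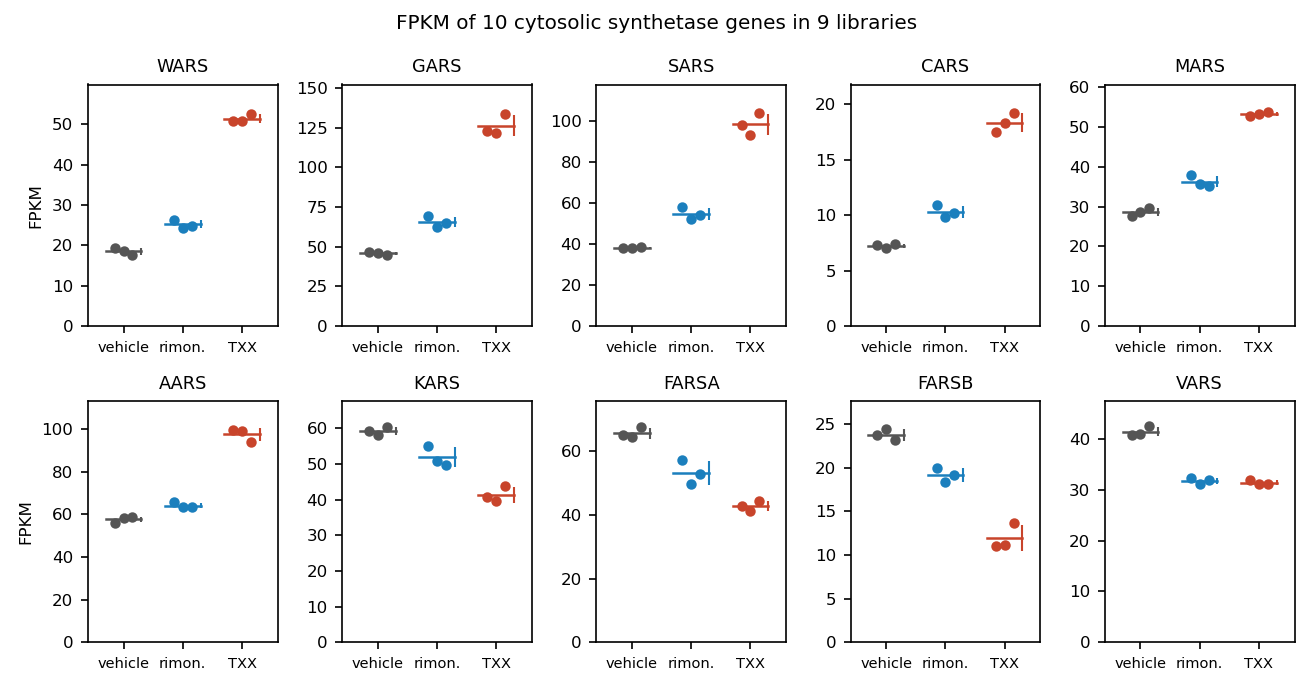
FPKM (y axis, from 0) of cytosolic synthetase genes in each library by treatment (x axis), with a point per library, a horizontal line at the mean and a bar of 1 SD beside it. In WARS, GARS, SARS and CARS vehicle is lowest, rimonabant is between and TXX-1-10 is highest, with no overlap, and FARSB and KARS run the other way.

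Outside the complex another 4 genes rose but stayed below the fold threshold, namely AARS for alanine (log2 fold change 0.76, SE 0.05, edgeR adjusted p = 2.69e-08), YARS for tyrosine (0.66), NARS for asparagine (0.52) and TARS for threonine (0.32). The 4 that fell were FARSB (-0.996), FARSA (-0.62), VARS for valine (-0.40) and HARS for histidine (-0.35). FARSA and FARSB encode the 2 kinds of subunit of a single enzyme, and both fell. FARSB, its other subunit (chromosome 2, 222570536 to 222656337, minus strand), had 23.7, 24.4 and 23.1 FPKM with vehicle, 20, 18.4 and 19.1 with rimonabant and 11, 11.1 and 13.6 with TXX-1-10. The treatments did not overlap, and the highest TXX-1-10 value was replicate 3, which is a library that stands apart. The log2 fold change of FARSB under TXX-1-10 was just short of the fold threshold (SE 0.08, edgeR adjusted p = 1.71e-07), and it was past it without vehicle replicate 3, with mitochondrial counts taken out of the library total and, at -1.10, without TXX-1-10 replicate 3.

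The 8 enzymes of the multisynthetase complex moved in both directions. MARS for methionine, IARS for isoleucine, LARS for leucine and EPRS for glutamate and proline rose, KARS, QARS for glutamine and RARS for arginine fell, and DARS for aspartate had a log2 fold change of -0.12 (edgeR adjusted p = 0.174). The median over the 8 was 0.02, against 0.59 over the 12 cytosolic genes outside the complex. The difference between these medians was not tested.

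MARS (chromosome 12, 57475445 to 57517569, plus strand) had 27.7, 28.7 and 29.7 FPKM with vehicle, 38, 35.7 and 35.3 with rimonabant and 52.8, 53.4 and 53.9 with TXX-1-10. The groups did not overlap, and the log2 fold change was 0.90 (SE 0.05, edgeR adjusted p = 5.27e-09). The span of MARS overlaps that of DDIT3, a stress-induced transcription factor gene on the other strand, by 982 bases, and the library kit that the study names does not mark strand. The mean count on DDIT3 went from 249 under vehicle to 3.04e+03 under TXX-1-10, while that on MARS went from 3.46e+03 to 7.01e+03, a gain of 3548 reads. The part of DDIT3 reads in the MARS value was not tested.

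KARS, whose gene also gives a mitochondrial form (chromosome 16, 75627474 to 75648643, minus strand), had 59.1, 58.2 and 60.4 FPKM with vehicle, 55, 50.9 and 49.8 with rimonabant and 40.8, 39.5 and 43.9 with TXX-1-10. Here the order of the treatments was the reverse of that in MARS, without overlap, and the log2 fold change was -0.52 (SE 0.05, edgeR adjusted p = 1.71e-06). The rise of EPRS was small (log2 fold change 0.15, SE 0.05, edgeR adjusted p = 0.0194). It did not pass without vehicle replicate 2, without vehicle replicate 3, without TXX-1-10 replicate 1 or with mitochondrial counts taken out of the library total.

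Of the 3 scaffold genes 0 rose and 1 fell under TXX-1-10, where 34.7% of all genes rose and 40.6% fell. AIMP2 (chromosome 7, 6009245 to 6023834, plus strand) had 23.7, 22.6 and 24.4 FPKM under vehicle, 15.4 and 16.2 in rimonabant replicates 2 and 3 and 15.5, 16.4 and 19 under TXX-1-10. Both compounds lay below every vehicle library and overlapped each other. The log2 fold change was -0.47 under TXX-1-10 (SE 0.08, edgeR adjusted p = 0.000153) and -0.58 under rimonabant (SE 0.09, edgeR adjusted p = 0.00032). EEF1E1, also called AIMP3 (chromosome 6, 8073360 to 8102578, minus strand), had 7.53, 8.61 and 6.56 FPKM with vehicle, 6.94 and 8.3 with rimonabant and 7.09, 7.71 and 9.54 with TXX-1-10, and all groups overlapped. Its log2 fold change was 0.10 (edgeR adjusted p = 0.506), and that of AIMP1 was -0.13 (edgeR adjusted p = 0.0782). AIMP1 passed without TXX-1-10 replicate 3 and with mitochondrial counts taken out of the library total. Of the stretches of 50 bases in the annotated exons of AIMP2, 25.2% also occur in another gene, mostly in EIF2AK1, which overlaps it and fell by 0.30 on the log2 scale, and the part of this overlap in its value was not tested.

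Synthetases are also divided into class I and class II by the fold of their catalytic domain. Of the 10 cytosolic class I genes 7 rose and 3 fell (median log2 fold change 0.41), and of the 10 class II genes 5 rose and 4 fell (median 0.10). Over all genes 34.7% rose and 40.6% fell, with a median of -0.04. The highest log2 fold changes came from both classes, with WARS and CARS in class I and GARS and SARS in class II, and the difference between the classes was not tested.

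Among the mitochondrial enzymes, EARS2 for glutamate (chromosome 16, 23522014 to 23557731, minus strand) had the lowest log2 fold change. It had 5.49, 5.63 and 5.59 FPKM under vehicle, 4.34 and 3.81 in rimonabant replicates 2 and 3 and 2.82, 3.37 and 2.82 under TXX-1-10. The groups did not overlap, and the log2 fold change was -0.89 (SE 0.09, edgeR adjusted p = 1.4e-06). WARS2 for tryptophan fell nearly as far, with 5.16, 5.19 and 4.85 FPKM in the vehicle libraries, 3.48 and 3.62 in rimonabant replicates 2 and 3 and 2.85, 2.49 and 2.92 in the TXX-1-10 libraries (log2 fold change -0.88, SE 0.09, edgeR adjusted p = 1.69e-06). The other 7 that fell were MARS2 (-0.58), LARS2 (-0.46), IARS2 (-0.43), YARS2 (-0.39), FARS2 (-0.38), NARS2 (-0.34) and AARS2 (-0.33).

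VARS2 for valine, CARS2 for cysteine and HARS2 for histidine rose. VARS2 (chromosome 6, 30908242 to 30926459, plus strand) had 4.9, 4.69 and 4.79 FPKM under vehicle, 5.6 and 5.79 in rimonabant replicates 2 and 3 and 6.69, 7.25 and 6.89 under TXX-1-10. These formed 3 steps without overlap, with a log2 fold change of 0.53 (SE 0.06, edgeR adjusted p = 2.83e-06). In VARS2, 21.2% of the stretches of 50 bases also occur in another gene, mostly in the overlapping GTF2H4. RARS2 (0.01, edgeR adjusted p = 0.893) and TARS2 (-0.03, edgeR adjusted p = 0.644) did not pass. PARS2 for proline, which was not tested, had 4.86 and 4.43 FPKM in vehicle replicates 1 and 3, 5.37 and 4.62 in rimonabant replicates 2 and 3 and 6.28, 5.67 and 5.74 under TXX-1-10. SARS2 for serine had 0.87 and 1.02 FPKM in vehicle replicates 1 and 3, 0.526 and 0.702 in rimonabant replicates 2 and 3, and 0.303 and 0.269 in TXX-1-10 replicates 2 and 3. Its counts are low, and 47.7% of its stretches of 50 bases also occur in another gene.

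**Figure D3:**
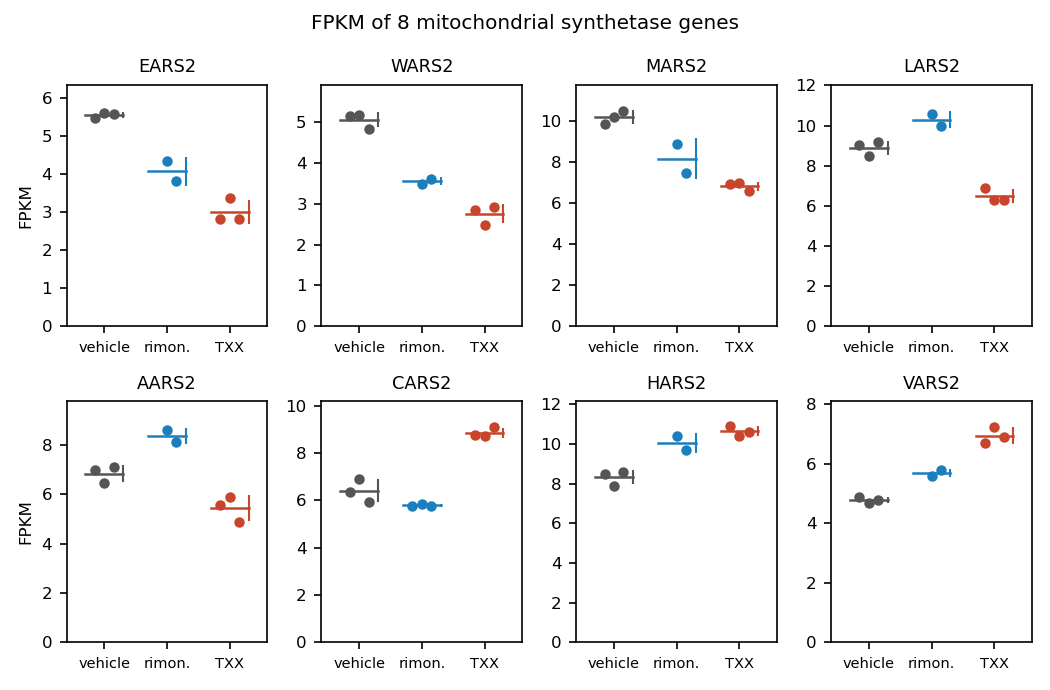
FPKM (y axis, from 0) of 8 mitochondrial synthetase genes in each library by treatment (x axis), with a point per library, a line at the mean and a bar of 1 SD. EARS2 and WARS2 step down from vehicle to TXX-1-10, VARS2 steps up, and LARS2 and AARS2 are highest under rimonabant and lowest under TXX-1-10. Genes not listed for rimonabant replicate 1 have 2 rimonabant points.

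Enzymes for the same amino acid often moved apart between the compartments. Of 14 pairs of a cytosolic and a mitochondrial gene, the mitochondrial gene had the lower log2 fold change under TXX-1-10 in 10 and the higher in 4. The widest pair was tryptophan, with 1.48 for WARS and -0.88 for WARS2, so that the ratio of WARS to WARS2 mean FPKM went from 3.64 under vehicle to 18.7 under TXX-1-10. For methionine the values were 0.90 for MARS and -0.58 for MARS2, and the FPKM ratio went from 2.82 to 7.83. Valine ran the other way, with -0.40 for VARS and 0.53 for VARS2, and the FPKM ratio fell from 8.63 to 4.51. So did histidine, with -0.35 for HARS and 0.36 for HARS2. HARS and HARS2 lie head to head on chromosome 5 with their starts 436 bases apart and their spans overlapping, and they share 388 stretches of 50 bases (8.36% of those of HARS and 11% of those of HARS2 also occur in another gene), so their split of reads is uncertain. MARS also overlaps DDIT3, and VARS2 overlaps GTF2H4, as given above, and the part of such reads in the pair values was not tested. The differences within pairs are descriptions and were not tested.

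**Figure D4:**
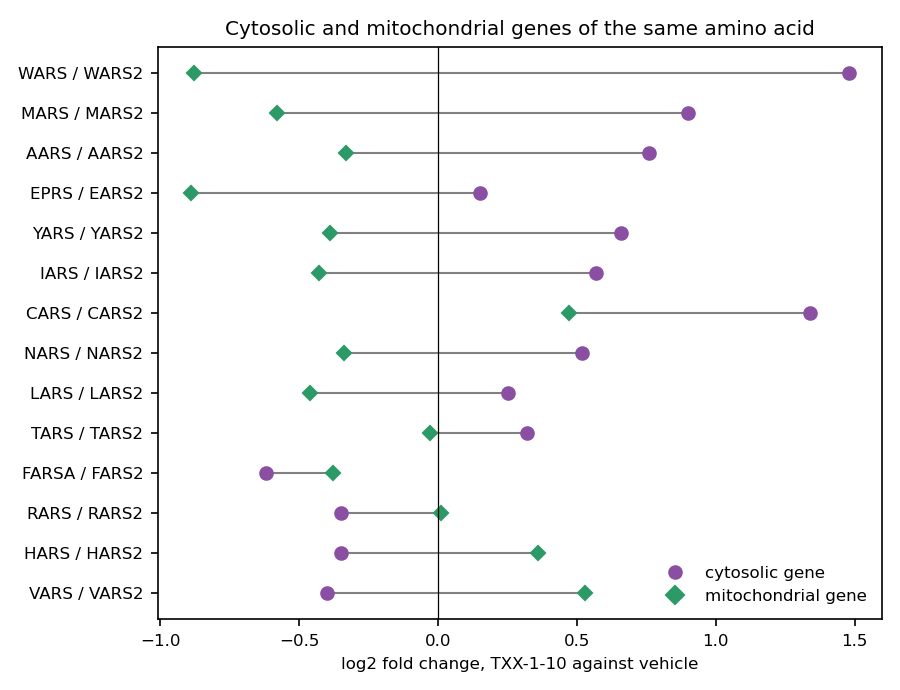
Log2 fold change under TXX-1-10 against vehicle (x axis) for 14 pairs of genes of the same amino acid (y axis). A circle marks the cytosolic gene and a diamond the mitochondrial gene, joined by a line. In 10 pairs the mitochondrial gene has the lower value, farthest apart for tryptophan (1.48 and -0.88), and in 4 it has the higher.

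With rimonabant the median size of the log2 fold changes was 0.19, as it was over all genes, against 0.46 with TXX-1-10, where it was 0.38 over all genes. Of the 37 genes 10 rose and 12 fell, with 23.7% and 22.8% of all genes as background, and 0 were changed by the fold threshold, against 1.49% of all genes in either direction. In 32 of the 37 genes the FPKM of the libraries tested did not overlap between rimonabant and vehicle, as in 72.4% of all genes. With edgeR at an unadjusted p under 0.05 the count past the fold threshold was also 0, as no log2 fold change reached 1 in size, and limma and DESeq2 gave 0 too. GARS, SARS, CARS and WARS rose by 0.48, 0.48, 0.47 and 0.42 on the log2 scale (SE 0.06 each, edgeR adjusted p from 4.96e-05 to 0.000125), and these were the 4 highest values of the 37. The largest falls were in AIMP2 (-0.58), WARS2 (-0.51), EARS2 (-0.45) and VARS (-0.40). These counts rest on few libraries. Without rimonabant replicate 2, 6 genes rose and 7 fell, and without rimonabant replicate 3, 6 fell. YARS (log2 fold change 0.14, edgeR adjusted p = 0.0439) and HARS (-0.15, edgeR adjusted p = 0.0378) lost their calls in 13 and 9 of the 21 alternatives, the latter also in the fit of 9 libraries.

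The log2 fold changes with TXX-1-10 and with rimonabant, which are measured against the same vehicle libraries, were 0.90 and 0.31 in MARS, 0.66 and 0.14 in YARS, 0.36 and 0.27 in HARS2 and 0.53 and 0.25 in VARS2. Among genes lower with each, they were -0.62 and -0.36 in FARSA, -0.996 and -0.34 in FARSB, -0.52 and -0.23 in KARS, -0.35 and -0.17 in QARS, -0.43 and -0.19 in IARS2 and -0.58 and -0.32 in MARS2. IARS, AARS, NARS, TARS, EPRS and CARS2 rose with TXX-1-10 and did not pass with rimonabant, where AARS had a log2 fold change of 0.14 (edgeR adjusted p = 0.0542) and passed in the fit of 9 libraries. RARS, FARS2, NARS2 and YARS2 fell with TXX-1-10 and did not pass with rimonabant.

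LARS, LARS2 and AARS2 passed in opposite directions with the compounds, and their difference between the compounds is given with the direct comparison. LARS had 32.5, 32.3 and 31.4 FPKM with vehicle, 26.9, 28.4 and 28.4 with rimonabant and 38.2, 37.2 and 38.9 with TXX-1-10. Its log2 fold change was 0.25 with TXX-1-10 (SE 0.05, edgeR adjusted p = 0.000361) and -0.18 with rimonabant (SE 0.05, edgeR adjusted p = 0.0155). LARS2, the leucine enzyme of mitochondria, had 9.01, 8.48 and 9.16 FPKM under vehicle, 10.6 and 10 in rimonabant replicates 2 and 3 and 6.87, 6.29 and 6.27 under TXX-1-10. LARS was lowest and LARS2 highest under rimonabant, and the reverse held under TXX-1-10. AARS2 had 6.98, 6.45 and 7.12 FPKM with vehicle, 8.61 and 8.13 with rimonabant and 5.56, 5.91 and 4.88 with TXX-1-10, and no groups of these genes overlapped. The rimonabant calls of LARS, LARS2 and AARS2 were lost without vehicle replicate 2 and without rimonabant replicate 2, and those of LARS and AARS2 also without rimonabant replicate 3.

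TXX-1-10 was then compared with rimonabant itself, a single pair of compounds whose doses and times are not stated, so the differences are between these treatments as given. Of the 37 genes 13 were higher and 13 lower under TXX-1-10, where 26.7% and 33.9% of all genes were. WARS was changed by the fold threshold (log2 difference 1.06, SE 0.06, edgeR adjusted p = 2.13e-08), against a background of 2.1% of genes changed and higher and 4.31% changed and lower. The groups did not overlap in 29 of the 37 genes, as in 71.4% of all genes. GARS stood just below it at 0.983 before rounding (SE 0.06, edgeR adjusted p = 5.49e-08), and SARS (0.89) and CARS (0.87) followed. Without rimonabant replicate 3, TXX-1-10 replicate 1 or TXX-1-10 replicate 2, GARS was past the threshold too, for a count of 2. The lower calls of FARS2, MARS2 and QARS were the least stable, lost in 11, 6 and 5 alternatives. Among the genes that moved in opposite directions, the log2 difference was 0.42 in LARS (edgeR adjusted p = 2.12e-05), -0.67 in LARS2 (edgeR adjusted p = 3.6e-06) and -0.62 in AARS2 (edgeR adjusted p = 8.15e-05). For FARSB it was -0.66 (edgeR adjusted p = 3.74e-05).

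A difference between the compounds was not found in 11 genes. The 95% interval of the log2 difference was -0.12 to 0.11 in VARS, -0.11 to 0.15 in EPRS and -0.23 to 0.13 in DARS. VARS fell with each compound, from 40.7, 41 and 42.5 FPKM to 32.2, 31.1 and 31.8 with rimonabant and 31.9, 31.1 and 31 with TXX-1-10, and with a log2 fold change of -0.40 for both. The interval was -0.09 to 0.30 in AIMP2 and -0.07 to 0.24 in HARS2, which also passed in the same direction with each compound. It was widest in EEF1E1, at -0.23 to 0.41, and EEF1E1 had all its groups overlapping. In the other 5 it was -0.17 to 0.12 in AIMP1, -0.15 to 0.15 in TARS2, -0.25 to 0.10 in RARS2, -0.36 to 0.01 in YARS2 and -0.35 to -0.00 in NARS2. Without TXX-1-10 replicate 3, DARS, YARS2 and NARS2 passed, YARS2 and NARS2 also with mitochondrial counts taken out of the library total, and NARS2 also with both limma settings.

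Of 15 other genes that serve transfer RNA charging 9 were tested, and 4 rose and 3 fell under TXX-1-10 (median log2 fold change 0.13), where 34.7% of all genes rose and 40.6% fell. XPOT, the exporter of transfer RNA from the nucleus, had the highest value (0.86, SE 0.05, edgeR adjusted p = 1.79e-08), and with rimonabant its value was 0.17 (edgeR adjusted p = 0.0295). TRNT1, which adds the terminal CCA on which the amino acid is loaded, had the lowest (-0.87). A further list held 12 genes for elongation factors, which bring charged transfer RNA to the ribosome or move it on, for their exchange factors and for EEF2K, a kinase that inhibits the factor EEF2. Of these 10 were tested, and 2 rose and 6 fell (median -0.35, against -0.04 over all genes and the same background shares), with EEF2K the lowest at -0.89.

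Of 30 genes of the sensing of uncharged transfer RNA and of the ATF4 response 27 were tested. Under TXX-1-10 22 rose, 15 of them changed, and 4 fell, with a median log2 fold change of 1.09, where 34.7% of all genes rose, 5.28% were changed and higher and 40.6% fell. With rimonabant 20 rose, 8 of them changed, and 2 fell (median 0.62), where 23.7% of all genes rose, 1.49% were changed in either direction and 22.8% fell. The largest under TXX-1-10 were NUPR1 (4.94), DDIT3 (3.49), TRIB3 (3.48), SESN2 (3.01) and CHAC1 (2.93). ATF4 itself rose by 0.62 with TXX-1-10 (SE 0.07, edgeR adjusted p = 5.09e-06) and by 0.51 with rimonabant (edgeR adjusted p = 0.000263) on the log2 scale. The 4 that fell were the kinase gene EIF2AK4 (-0.40), GCN1 (-0.36), IMPACT (-0.56) and EIF2S1 (-0.51), which encodes the initiation factor subunit that the kinase phosphorylates. Most genes of this list are textbook responders, chosen with earlier results of these data known, so the list is not independent evidence of a direction.

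The letters TGATGNAA, common to many C/EBP-ATF response elements, were searched on both strands in the 250 bases upstream of the start in RefSeq (GRCh38.p14). A window was at hand for 33 of the 39 genes. The letters were found in 3 of them (9.09%), against 870 of 27305 windows of all genes (3.19%) and 350 of 15843 windows of protein-coding genes (2.21%). Of the 3 genes, AARS and IARS rose under TXX-1-10 and YARS2 fell, and the windows of the 4 changed genes hold no match. The stretches that hold the 3 matches are shown because they let a reader see the word and what surrounds it. Capitals mark the match, written along the strand of the gene, so that TTGCATCA is the search word read on the opposite strand.
AARS: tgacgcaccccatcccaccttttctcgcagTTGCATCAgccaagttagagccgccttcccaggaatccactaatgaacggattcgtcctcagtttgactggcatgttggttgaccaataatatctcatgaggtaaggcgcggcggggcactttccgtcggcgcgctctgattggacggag
IARS: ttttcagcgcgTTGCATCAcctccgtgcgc
YARS2: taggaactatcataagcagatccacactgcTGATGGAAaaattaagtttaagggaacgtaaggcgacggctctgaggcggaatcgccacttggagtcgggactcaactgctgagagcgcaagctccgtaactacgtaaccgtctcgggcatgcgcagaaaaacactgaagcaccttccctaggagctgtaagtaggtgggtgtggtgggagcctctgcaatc
The AARS stretch is chr16:70289544-70289723, the IARS stretch is chr9:92293692-92293721 and the YARS2 stretch is chr12:32755903-32756124, all on the minus strand. The first base of the match lies 187 bases upstream of the RefSeq start of AARS, 13 bases upstream of that of IARS and 197 bases upstream of that of YARS2. The match of IARS lies within the gene span that the deposited lists give, which begins farther upstream than the RefSeq start, and the matches of AARS and YARS2 lie outside the spans of their own genes. AARS and IARS carry the same 8 letters, and their log2 fold changes under TXX-1-10 were 0.76 and 0.57. A match is a description of the letters, and no binding was measured here.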

How the data were processed

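For each gene of each library the authors deposited a whole-number count of reads without normalization, and beside it an FPKM value, which the authors made from the count, the gene length in the list and a library total. The submitters' processing notes name HISAT2 2.0.5 and featureCounts 1.5.0-p3, and the study's methods name oligo(dT) selection and NEBNext Ultra libraries. Whether multimapping or ambiguous reads were counted is not given in the sources used here. Each list ends partway through a line, which was left out, and a gene that is missing from a list was not taken as 0.

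The counts of 8 libraries (3 vehicle, 2 rimonabant and 3 TXX-1-10) entered 1 fit in edgeR 4.0.16 (R 4.3.3), with the total behind the FPKM values as library size, for 9369 genes listed in all 8 with a mean FPKM of at least 1. The thresholds were an adjusted p of 0.05 and an absolute log2 fold change of 1, as a figure legend of the study gives them, while its methods name an unadjusted p, and the common biological coefficient of variation was 0.0604. Depth was similar between treatments, and its counting error is part of each standard error. Sums and orders of FPKM are descriptions. Stretches of 50 bases were compared between the exons of GENCODE 29 genes, whose coordinates match the lists, and promoter windows came from RefSeq. 1 elongation factor gene is not analysed here.

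Values in every library were printed for changed genes and for the gene with the highest and lowest log2 fold change under TXX-1-10 in each group, and for LARS, LARS2, AARS2, VARS, WARS2, PARS2 and SARS2, which were added after their values were seen. Of the related lists, XPOT, ATF4 and at most 5 others each were named, 1 gene that the rule also names is not reported here, and TRNT1 and the 4 sensing genes that fell were named after their values were seen. The genes and lists were chosen with earlier results of these data known. The replicate numbers come from the sample labels and did not pair the libraries.

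The 19 alternatives were the fit of 9 libraries, TMM, DESeq2 1.42.0, no filter, a mean FPKM of at least 5, the replicate number as a block, a length offset alone and with the block, limma 3.58.1 on log2(FPKM + 1) and log2(FPKM + 0.1), 2 groups only, and each library left out in turn. The 2 chosen after seeing the data were the library total without mitochondrial counts and the fit of 9 libraries with the length offset. Tables and plots used Python 3.11.15, matplotlib 3.10.9, scipy 1.17.1, numpy 2.4.6 and pandas 2.3.3.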

Additional observations from a re-analysis of the deposited data

How the results depend on the processing

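Under TXX-1-10 against vehicle, each library left out in turn gave 14 to 15 synthetase genes that rose, 17 to 19 that fell and 4 to 5 that were changed. Under rimonabant the ranges were 6 to 12, 6 to 14 and 0 to 0, and between the compounds 13 to 13 higher, 10 to 16 lower and 1 to 2 changed. For the related lists they were 7 to 7 transfer RNA charging genes, 8 to 9 elongation factor genes and 25 to 26 sensing and ATF4 genes past the threshold. In the fit of 9 libraries, with or without the length offset, only 23 synthetase genes could be tested, and 8 fell under TXX-1-10, 7 under rimonabant and 7 stood lower in the comparison of the compounds. In the same fits 2 charging genes and 16 sensing and ATF4 genes passed, and without the offset 5 elongation factor genes, as fewer genes were tested. With TMM, DESeq2, the length offset, that offset with the replicate block, or 9 libraries with the offset, 2 genes in place of 1 were changed between the compounds, since GARS joined WARS. For single genes, 739 values under TXX-1-10 against vehicle stayed on the same side of the threshold, 4 lost a call and 3 gained one. Under rimonabant these counts were 683, 43 and 20, and between the compounds 716, 23 and 7. Values that passed in neither fit were counted as staying even where their direction differed. An example is RARS2 under TXX-1-10, at 0.01 in the main fit and -0.04 to 0.09 over the alternatives. No call reversed in any alternative. Same-numbered libraries of TXX-1-10 and vehicle had deviations with correlations of -0.06, 0.01 and -0.07, those of rimonabant and vehicle -0.05, 0.04 and 0.04, and those of both compounds -0.79, 0.83 and -0.61, and 0 of 6, 2 of 6 and 2 of 6 libraries correlated best with their own number. With the replicate block 15 genes rose and 17 fell under TXX-1-10, 10 rose and 13 fell under rimonabant, and 13 were higher and 12 lower between the compounds. The depth limits the low genes most, and EEF1E1 and FARS2 had standard errors of 0.13 and 0.11 under TXX-1-10.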
